A study of Mus musculus with 28 samples.

Results

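Krüppel-like factors (KLFs) were followed in the tibialis anterior (TA) muscle of 28 mice with or without a centronuclear myopathy. The 9 genes *Klf2*, *Klf3*, *Klf4*, *Klf5*, *Klf6*, *Klf7*, *Klf9*, *Klf10* and *Klf15* were taken by name out of the 55359 genes listed in both count tables, and each had 1 Ensembl identifier, such as ENSMUSG00000005148 for *Klf5* and ENSMUSG00000029178 for *Klf3*. The set was taken to be selected on the CPM (read counts scaled to the size of each library) of the placebo-fed *Dnm2* mutant and WT mice, in which *Klf5* was far higher in the mutant, so this comparison is described without a test for any of the 9 genes. Each other comparison of cohort G shares mice with it or contrasts the same genotypes, and *Klf5* is given there without a test. All 9 passed the filter on low counts in both cohorts.

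The mice formed 7 groups of 4, all aged 8 weeks and of the C57BL/6N strain. In cohort G, WT mice and mice heterozygous for the point mutation *Dnm2* S619L/+ received either a placebo diet or a diet with tamoxifen, a ligand of the estrogen receptor, which gives the WT, WT treated, disease and disease treated groups. In cohort F, *Bin1* mck-/- mice, which lack *Bin1* in striated muscle because the deletion is driven by a muscle creatine kinase promoter, received placebo (disease) or tamoxifen (disease treated), and WT mice received placebo. *Dnm2* codes for the membrane-cutting GTPase dynamin 2 and *Bin1* for the membrane-bending protein amphiphysin 2, and mutations of either cause centronuclear myopathy. The input was 300 ng of RNA, fragmented for 2 min, in cohort G and 350 ng, fragmented for 8 min, in cohort F. Model and protocol therefore cannot be told apart, and groups were compared only within a cohort.

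KLFs are transcription factors that bind GC-rich and CACCC boxes of DNA through 3 zinc fingers at the end of the protein, while the rest of the protein decides which partner is recruited. *Klf2*, *Klf4*, *Klf5*, *Klf6* and *Klf7* code mostly for activators, KLF3 recruits the corepressor CtBP, and KLF9 and KLF10 recruit Sin3A. In muscle, KLF15 and KLF9 are known as targets of the glucocorticoid receptor that act on amino acid and lipid use, KLF2 and KLF4 are known downstream of Erk5 in the fusion of myoblasts and as flow-sensitive factors of the endothelium, and KLF5 is known for its part in the differentiation of muscle cells and in regeneration.

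The DNA that codes for the third finger, from its first cysteine to its last histidine codon, is shown because it lets a reader see both the family likeness and how far reads of 1 member could be taken for another. Sequences were read by script from the longest reading frame of the GENCODE M21 transcripts, 5′ to 3′, with capitals at the bases that differ from *Klf5*.
Klf5: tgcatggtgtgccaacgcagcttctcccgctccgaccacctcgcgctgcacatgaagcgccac
Klf2: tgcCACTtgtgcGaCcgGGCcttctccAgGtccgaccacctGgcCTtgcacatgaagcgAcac
Klf4: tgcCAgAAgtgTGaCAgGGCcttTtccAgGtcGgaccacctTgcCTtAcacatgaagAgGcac
Klf3: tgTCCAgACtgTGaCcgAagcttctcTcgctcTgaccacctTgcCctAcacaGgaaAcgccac
Klf6: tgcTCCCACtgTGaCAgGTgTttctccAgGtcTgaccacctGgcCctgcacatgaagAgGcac
Klf7: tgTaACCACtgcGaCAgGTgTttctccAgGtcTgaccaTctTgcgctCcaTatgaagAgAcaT
Klf9: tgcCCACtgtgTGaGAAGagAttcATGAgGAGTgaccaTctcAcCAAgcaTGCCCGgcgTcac
Klf10: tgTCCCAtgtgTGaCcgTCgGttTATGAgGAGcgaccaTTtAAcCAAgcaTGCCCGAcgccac
Klf15: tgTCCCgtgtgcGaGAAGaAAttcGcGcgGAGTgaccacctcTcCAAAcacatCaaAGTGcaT
This finger spanned 63 bases, of which 15 differed between *Klf5* and *Klf2* and 33 between *Klf5* and *Klf10*. Over the 243 bases that code for all 3 fingers, identity to *Klf5* went from 57.2% in *Klf10* to 73.7% in *Klf3*, and the closest pair of the 9 genes, *Klf6* and *Klf7*, was identical at 81.1% of the bases. The coding sequence after the last finger was short in *Klf2*, *Klf4*, *Klf6* and *Klf7*, with 1 codon each, and long in *Klf9* (19 codons) and *Klf10* (29 codons).

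Depth was 15.6 to 109.7 M reads on genes per mouse in cohort G and 24.7 to 35.1 M in cohort F. The deletion was seen in the counts, with *Bin1* at 521.2 to 555.8 CPM in WT mice of cohort F and 36.1 to 62.1 in *Bin1* mck-/- mice, while *Dnm2* (57.2 to 82.4 CPM over all mice) cannot check a point mutation. Transcripts of mature muscle fibers gave 79830 to 171700 CPM in every mouse over the 7 marker genes, none of which was at 0. *Xist*, a female transcript, was above 120 CPM in 2 of 4 mice of 3 groups of cohort G and in all 4 disease treated mice, and at 70.8 to 115.3 CPM in the 12 mice of cohort F, while the labels give no sex. Under tamoxifen in cohort G, 5 of 6 bone markers rose in both genotypes, and their summed level was 778.6 to 1853 CPM in WT treated mice and 18.3 to 1395 in disease treated mice, against 1.34 to 2.78 in placebo mice. In cohort F, bone markers reached 493.7 CPM in disease treated mouse 2.

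When corrected for transcript length, *Klf9* was the most abundant of the 9 genes. In WT mice of cohort G, *Klf9* stood at 62.9 ± 8.41 CPM per kb of exon (SD, n = 4), with its lowest mouse (54.8) far above the highest mouse of *Klf15* (20.03). *Klf15* (15.9 ± 4.34) and *Klf6* (14.3 ± 3.56) came next and overlapped between mice, as did *Klf2* (7.53 ± 2.17), *Klf4* (6.36 ± 1.46) and *Klf10* (5.08 ± 1.62). *Klf7* (2.89 ± 0.47) and *Klf3* (1.96 ± 0.16) followed, with all mice of *Klf7* above those of *Klf3*. *Klf5* was last, at 0.50 ± 0.22 CPM per kb, and its highest mouse (0.81) lay below the lowest mouse of *Klf3* (1.72). In disease mice of cohort G, *Klf5* (4.26 ± 1.11) stood above *Klf7* (2.09 ± 0.31) and *Klf3* (1.40 ± 0.32), and its range of 3.46 to 5.91 met that of *Klf4* (3.43 to 6.75). Across cohorts, the level per kb of *Klf6* was 6.26 ± 1.099 in WT mice of cohort F, less than in cohort G, and this difference was not tested because the protocols differ.

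**Figure D1:**
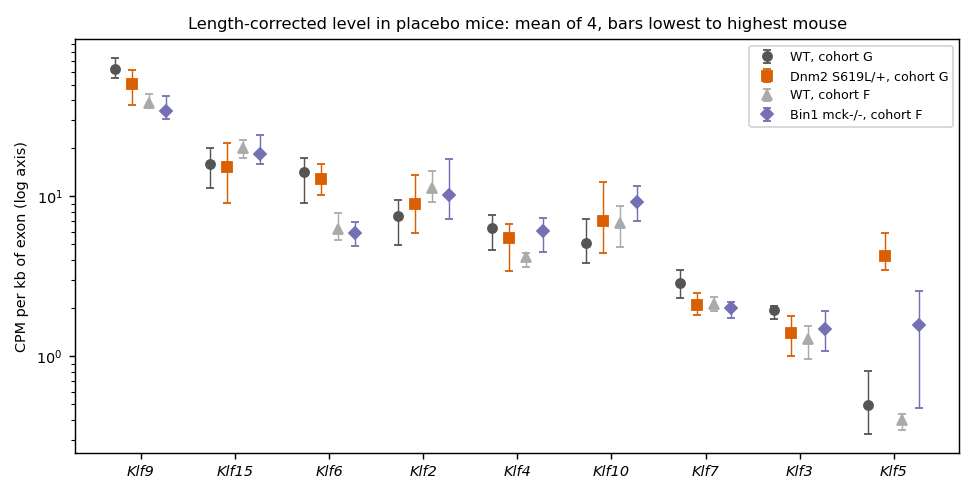
Level of each gene in CPM per kb of exon (log axis) in the placebo mice of both cohorts; markers are means of 4 mice and bars run from the lowest to the highest mouse. *Klf9* is highest in all 4 groups, and *Klf5* moves from the bottom of the order in WT mice (0.50 in cohort G) to 4.26 in *Dnm2* S619L/+ mice.

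*Klf5* was the member that differed most between disease and WT mice of cohort G. It was counted at 2.57, 1.70, 1.90 and 4.20 CPM in the 4 WT mice and at 30.7, 19.4, 17.97 and 20.6 CPM in the 4 disease mice. The highest WT mouse was thus far below the lowest disease mouse, and the log2 difference was 3.04 (SE 0.26), or 8.23-fold. Of the 9 genes, *Klf5* was the only 1 whose disease and WT mice did not overlap, against 24.9% of all genes tested, and this count is a description since the same contrast chose the gene. Across the other 8 genes the median log2 difference in this comparison was -0.19, beside 0.02 for all genes, with *Klf3* at -0.48 (SE 0.14) and *Klf7* at -0.47 (SE 0.16). In bulk muscle, a change in the number of cells of a type and a change of RNA per cell cannot be told apart.

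*Klf5* was lower in disease treated than in disease mice. The disease treated mice had 8.86, 5.74, 8.02 and 9.01 CPM, all below the 4 disease mice and all above the 8 WT and WT treated mice. The log2 difference from disease mice was -1.48 (SE 0.25), a description, since the disease mice are those whose high values chose *Klf5*. It ran from -1.57 to -1.28 when each mouse of the cohort was left out. The 2 disease mice with *Xist* reads, mice 1 and 4, had 30.7 and 20.6 CPM, also above all 4 disease treated mice, and with *Xist* as a covariate the difference was -1.71. Of the disease treated mice, mouse 4 had the lowest bone level (18.3 CPM) and 9.01 CPM of *Klf5*.

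WT treated mice had 3.52, 3.24, 2.78 and 3.9 CPM of *Klf5*, which overlapped with the WT mice, and the log2 difference was 0.34 (SE 0.26). It ran from 0.18 to 0.67 over the left-out mice, and was highest without WT mouse 4, the highest of its group. *Klf5* of disease treated mice was above that of WT treated mice by 1.22 (SE 0.25) and above that of WT mice by 1.56 (SE 0.26) on the log2 scale. The response to tamoxifen was 1.82 lower in disease than in WT mice (log2 difference of differences -1.82, SE 0.36). These values too are given without a test.

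The rule for the 9 genes names no contrast, and whether values of cohort F were also in view when they were chosen is not known. In *Bin1* mck-/- mice, *Klf5* was 13.3, 7.43, 2.47 and 9.43 CPM against 2.15, 2.26, 1.79 and 2.08 CPM in WT mice. All 4 disease mice lay above the 4 WT mice, although disease mouse 3 exceeded the highest WT mouse by little. *Klf5* rose by 1.94 on the log2 scale (SE 0.42, edgeR adjusted p = 0.033), the only call among the 9 genes, where 2.61% of all genes were called. *Klf4* also showed no overlap, so that 2 of 9 genes were separated, against 16.5% of all genes. The call of *Klf5* was close to the threshold. It was lost in 7 of 12 fits that left out 1 mouse, namely without disease mouse 1, 2 or 4 or any of the 4 WT mice (5 to 8), with adjusted p up to 0.11. These 7 fits called 18 to 207 genes in all, against 388 with all mice. Over all 12 fits the log2 difference was between 1.60 (without disease mouse 1) and 2.23. The call was also lost without a filter on low counts (adjusted p = 0.062) and with *Xist* as a covariate (0.068).

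Disease treated mice of cohort F had 2.35, 3.85, 2.64 and 6.07 CPM of *Klf5*, which overlapped with the disease mice. The log2 difference was -1.11 (SE 0.41, edgeR adjusted p = 0.14), and without disease mouse 3, the lowest of its group, it was -1.41 (adjusted p = 0.020). None of the 9 genes was without overlap there (9.8% of all genes). Against the WT mice, *Klf5* was the only 1 of 9 without overlap (7.97% of all genes), with a log2 difference of 0.83 (SE 0.42, adjusted p = 0.37).

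Markers of epithelia, where *Klf5* is also highly expressed, were at 0 to 1.04 CPM in sum over *Epcam*, *Cdh1*, *Krt5* and *Krt14* in every mouse of both cohorts, and 1 of these 4 genes passed the filter in cohort G and 0 in cohort F. Other markers moved in disease against WT mice, where 21.9% of all genes were called in cohort G and 2.61% in cohort F. Macrophage markers summed to 54.2 to 89.9 CPM in WT and 67.6 to 203.5 in disease mice of cohort G, with 2 of 7 higher, and to 37.7 to 57.5 and 105.7 to 223.0 in WT and disease mice of cohort F, with 3 of 7 higher and none at 0. Satellite cell markers (4 genes) had 2 lower in disease mice of each cohort. Their sums overlapped, at 8.19 to 47.1 CPM in disease and 20.1 to 28.2 in WT mice of cohort G. In cohort F, they were 6.36 to 23.0 CPM in disease and 17.85 to 22.2 in WT mice. Fibroblast markers (5 genes) summed to 506.9 to 850.0 CPM in disease mice of cohort G, with 1 higher, against 360.7 to 459.3 in WT mice, and in cohort F to 458.3 to 702.9 against 222.0 to 264.7, with none called. Smooth muscle and pericyte markers (5 genes) had 3 lower in disease mice of cohort G, at 300.7 to 634.8 CPM in sum against 940.4 to 1095. In disease mice of cohort F, 2 of 3 adipocyte markers tested were higher, *Cidec* (3.54, edgeR adjusted p = 0.015) and *Plin1* (3.34, edgeR adjusted p = 0.027). The list summed to 5.76 to 19.8 CPM, against 0.64 to 1.71 in WT mice. *Plin1* fell with tamoxifen (-3.32, edgeR adjusted p = 0.023), where 3.13% of all genes were called. The part of these cells in the level of *Klf5* was not tested.

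Genes known from denervated and regenerating fibers also differed between disease and WT mice of both cohorts. Of the 12 genes, 8 were higher and none lower in disease mice of cohort G (median log2 difference 2.12, beside 0.02 for all genes, of which 21.9% were called), led by *Sox11* (5.61 to 15.1 CPM against at most 0.23), *Runx1* (3.36, SE 0.33), *Gadd45a* and the myogenic factor *Myog* (2.83, SE 0.42). In disease mice of cohort F, 4 of 12 rose (median 1.34, beside 0.01), where 2.61% of all genes were called. They were *Myog* (2.26, adjusted p = 0.014), *Ncam1*, *Sox11* and *Runx1* (2.37, adjusted p = 0.045). Under tamoxifen in disease mice of cohort G, where 8.27% of all genes were called, *Sox11* fell by 1.195 (edgeR adjusted p = 0.038). *Myh8* rose there, and the other 10 did not pass the test. In WT treated mice, where 27.7% of all genes were called, 3 rose, among them *Runx1* (3.27), and 2 fell. The latter were the acetylcholine receptor subunits *Chrna1* (-1.86) and *Chrnd* (-2.24). Bone markers summed to 778.6 to 1853 CPM in these WT treated mice, against 1.34 to 2.72 in WT mice. The part of bone RNA in these differences was not tested. In disease treated mice of cohort F, *Chrna1* (-1.19) and *Chrnd* (-2.67) fell. Against disease mice, 3.13% of all genes were called there.

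**Figure D2:**
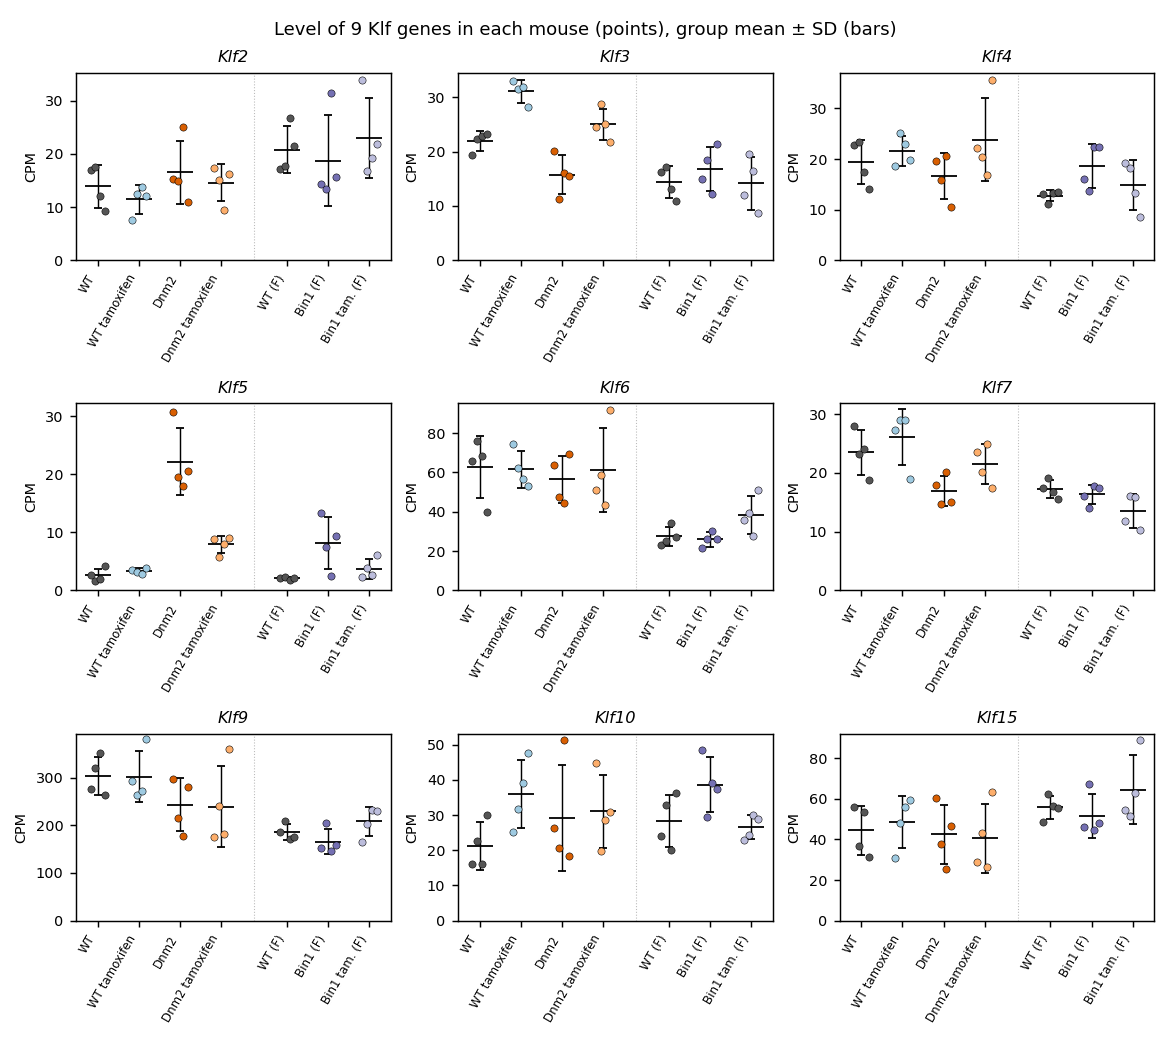
CPM of the 9 genes in each mouse (points) with the mean and SD of the 4 mice of a group (bars); cohort F stands to the right of the dotted line, and groups without the word tamoxifen received placebo. *Klf5* shows the disease mice of cohort G at 17.97 to 30.7 CPM, the disease treated mice at 5.74 to 9.01 and the WT mice at or under 4.20, and *Klf3* shows both tamoxifen groups of cohort G above their placebo groups.

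*Klf3*, the CtBP-recruiting repressor of the family, rose with tamoxifen in both genotypes of cohort G. WT mice had 19.3, 22.4, 22.9 and 23.2 CPM and WT treated mice 33.0, 31.6, 31.9 and 28.2. These groups did not overlap, and the log2 difference was 0.50 (SE 0.14, edgeR adjusted p = 0.014). *Klf3* was the only 1 of the 8 genes tested that was called in WT treated mice, and the only 1 without overlap, where 27.7% of all genes were called and 31.4% did not overlap.

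Disease mice had 20.1, 11.3, 16.1 and 15.5 CPM of *Klf3* and disease treated mice 24.5, 28.9, 25.0 and 21.9. Again no disease treated mouse fell among the disease mice, and the log2 difference was 0.67 (SE 0.14, edgeR adjusted p = 0.011). *Klf3* was the only 1 of the 8 genes tested that was called in this comparison, against 8.27% of all genes, and also the only 1 of the 8 without overlap, against 10.4%. When only the disease and disease treated mice entered the fit, *Klf3* lost its call with a larger difference of 0.71 (adjusted p = 0.091). That fit called 30 of 14310 genes, against 1277 of 15439 with all mice. *Xist* was high in disease mice 1 and 4 only, but in all disease treated mice. With *Xist* as a covariate, *Klf3* differed by 0.61 (edgeR adjusted p = 0.038), in a fit that called 495 of 15439 genes. The tamoxifen effects in disease and WT mice differed by 0.16 (SE 0.20, adjusted p = 0.78).

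Against WT mice, *Klf3* of disease treated mice differed by 0.19 (SE 0.14, adjusted p = 0.32), and against WT treated mice by -0.31 (SE 0.14, adjusted p = 0.24). In cohort F, *Klf3* was 10.9 to 17.3 CPM in the WT group, 12.2 to 21.5 in placebo *Bin1* mck-/- mice and 8.63 to 19.7 in treated ones, and these groups overlapped. The response to tamoxifen there was -0.23 (SE 0.24, adjusted p = 0.62).

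Both *Klf3* and bone RNA rose with tamoxifen in cohort G. Beyond the 5 of 6 bone markers, 4 of 4 tendon markers were higher in WT treated mice (396.1 to 893.5 CPM in sum, against 1.95 to 140.1 in WT mice) and 3 of 5 fibroblast markers (1140 to 1681 CPM, against 360.7 to 459.3). Macrophage markers had 5 of 7 higher in WT treated mice (131.7 to 268.1 CPM in sum, against 54.2 to 89.9), such as *Cd68* (2.49) and *Csf1r* (2.14). Cartilage markers had 2 of 3 tested higher (24.2 to 53.5 CPM, against 2.44 to 6.09), and satellite cell markers 1 of 4 higher (51.8 to 72.0 CPM, against 20.1 to 28.2). In that comparison, 27.7% of all genes were called. In disease treated mouse 4, in which bone markers summed to 18.3 CPM against 561.7 to 1395 in the other disease treated mice, *Klf3* was 21.9 CPM, the lowest of its group and still above the 4 disease mice. Without that mouse or any other mouse, *Klf3* kept its call in both genotypes (adjusted p at most 0.045 in WT and 0.047 in disease mice). No fit separated tamoxifen from the RNA of these cell types. The part of bone, tendon, fibroblast, macrophage, cartilage and satellite cell RNA in the level of *Klf3* was not tested.

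Among 10 genes of corepressors and ubiquitin ligases that bind KLF proteins, all were tested. The share of all genes called in cohort G was 21.9% in disease mice and 27.7% in WT treated mice. For disease treated mice it was 8.27% against disease mice and 28.9% against WT mice. *Ctbp2*, a corepressor recruited by KLF3, rose by 0.40 (SE 0.11, adjusted p = 0.043) in disease treated against disease mice, the only call of the list there. *Wwp1*, a ubiquitin ligase that acts on KLF2 and KLF5, was lower in disease than in WT mice (-0.52, SE 0.14), and *Fbxw7*, which marks KLF5 for degradation, fell in WT treated mice (-0.54, SE 0.18, adjusted p = 0.040). In disease treated against WT mice, *Wwp1* (-0.55) and *Fbxw7* (-0.69) were lower and *Sin3b* (0.30) and *Hdac1* (0.50) higher. None of the 10 was called in the 3 comparisons of cohort F.

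In cohort F, 0 of 9 genes were called by edgeR in disease treated against disease mice, with 4 at an unadjusted p under 0.05 and 1 call by DESeq2 (*Klf6*), where 3.13% of all genes were called. Against WT mice, 0 of 9 were called in the disease treated mice, with 2 at an unadjusted p under 0.05 and 0 by DESeq2 (0.849% of all genes). In cohort G, 0 of 8 genes other than *Klf5* were called in disease treated against WT treated mice (1 at an unadjusted p under 0.05, 0 by DESeq2, 2.7% of all genes) and 0 of 8 in disease treated against WT mice (0 and 0, with 28.9% of all genes called). The difference of the tamoxifen effects between genotypes was called in 0 of 8 (0 at an unadjusted p under 0.05 and 0 by DESeq2), where 0.259% of all genes were called.

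**Figure D3:**
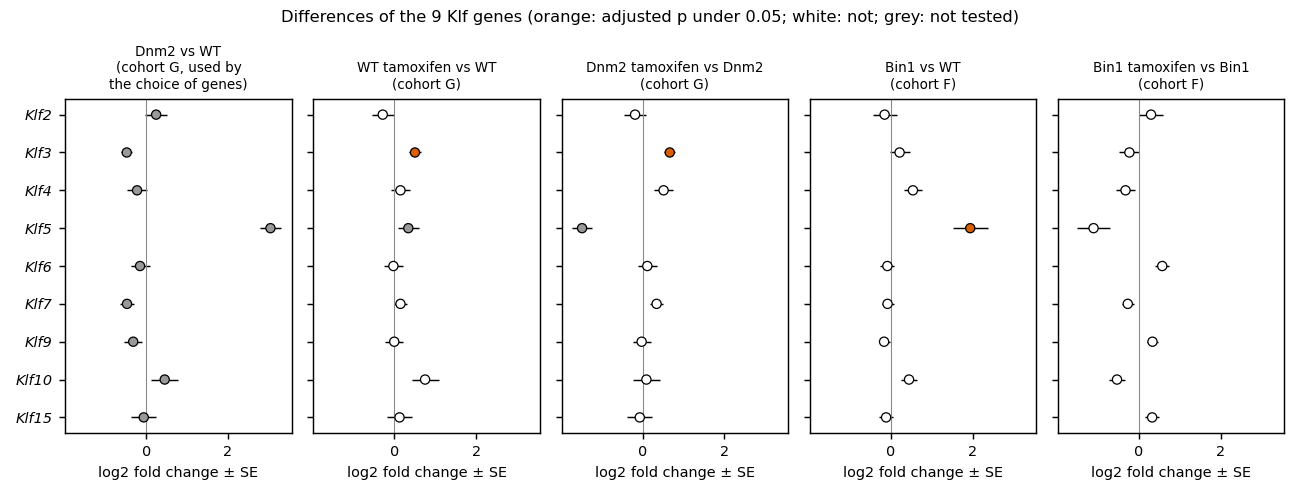
Log2 difference ± SE of each gene in 5 comparisons within a cohort; orange points passed an adjusted p under 0.05, white points did not, and grey points were not tested, which are all genes of the comparison that chose them and *Klf5* in cohort G. The orange points are *Klf3* in both tamoxifen comparisons of cohort G (0.50 and 0.67) and *Klf5* in disease mice of cohort F (1.94).

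*Klf2* and *Klf4*, the endothelial pair of the family, did not pass the test in any comparison. *Klf2* lay between 7.56 and 25.0 CPM in cohort G and between 13.4 and 33.9 in cohort F, and all groups of a cohort overlapped. Disease mouse 3 of cohort F had 31.5 CPM, more than 2 times the 13.4 to 15.6 of the other 3 mice of its group. *Klf4* was 14.1 to 23.4 CPM in WT, 18.6 to 25.1 in WT treated and 10.4 to 20.6 in disease mice of cohort G, where disease treated mice spanned 16.8 to 35.6. In cohort F, it was 13.1, 11.1, 13.3 and 13.5 CPM in WT mice and 16.1, 13.7, 22.3 and 22.3 in disease mice. Those 2 groups did not overlap, yet the log2 difference of 0.54 (SE 0.23) had an adjusted p of 0.19, which became 0.044 in a fit of these 8 mice alone. That fit called 1458 of 14376 genes, against 388 of 14841 with all mice.

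Endothelial markers fell in disease mice of cohort G, with 5 of 8 lower (189.0 to 541.1 CPM in sum, against 408.0 to 812.3 in WT mice), and none was called in cohort F. Of 8 known endothelial targets of KLF2 and KLF4, 3 were lower and none higher in disease mice of cohort G (median -0.55, beside 0.02 for all genes). These were the water channel *Aqp1* (-0.91), the peptidase *Ace* (-0.67) and the angiopoietin receptor *Tek* (-1.06). *Tek* is also one of the 8 endothelial markers. In this comparison 21.9% of all genes were called, and 2.61% in disease mice of cohort F. In disease mice of cohort F, *Ccn3* was higher (1.43, edgeR adjusted p = 0.018) and *Aqp1* lower (-0.58, edgeR adjusted p = 0.040). With tamoxifen, *Ccn3* (-1.57) and *Ace* (-0.93) fell there, where 3.13% of all genes were called. *Ccn3* rose in WT treated mice (1.39, edgeR adjusted p = 0.012), where 27.7% of all genes were called. The part of endothelial cells in the level of *Klf2* and *Klf4* was not tested.

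Of 9 genes of the Erk5 and Mef2 pathway and of myoblast fusion, 2 were higher in disease mice of cohort G. This is near the share of all genes called there, 21.9%, and that share was 27.7% in WT treated mice. The adhesion ligand *Npnt*, known downstream of KLF2 and KLF4 in muscle cells, was higher by 2.29 (SE 0.34), with 14.2 to 35.2 CPM in disease mice against 3.56 to 6.48 in WT mice. The fusion peptide gene *Mymx* was at 0.24 to 1.33 CPM in disease mice and at most 0.045 in WT mice. In WT treated mice, *Npnt* (1.38) and the kinase gene *Mapk7*, which codes for Erk5 (0.46), rose and *Srf* fell (-0.37). The part of the bone RNA of WT treated mice in these differences was not tested. None of the 8 genes tested in cohort F was called.

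*Klf6*, *Klf7* and *Klf10* are known as early genes of injury, of neurons and of TGF-beta, respectively. *Klf6* was 40.1 to 91.6 CPM in cohort G and its groups overlapped. In cohort F, it was 23.3 to 34.3 CPM in WT, 21.3, 26.2, 30.2 and 25.97 in disease and 35.6, 39.4, 27.9 and 51.0 in disease treated mice. Only treated mouse 3 fell among the disease mice, and the log2 difference of 0.57 (SE 0.17) had an adjusted p of 0.080, and of 0.035 by DESeq2.

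*Klf7* was 18.7, 23.2, 24.0 and 28.0 CPM in WT and 14.8, 15.04, 17.9 and 20.1 in disease mice of cohort G, sorted from low to high, so that 1 WT mouse lay among the disease mice. Disease treated mice had 17.4 to 25.0 CPM, a log2 difference of 0.34 (SE 0.16, adjusted p = 0.20) from disease mice. In cohort F, *Klf7* differed by -0.27 (SE 0.15, adjusted p = 0.30) under tamoxifen.

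*Klf10* was 16, 22.8, 15.97 and 30.2 CPM in WT and 25.2, 31.6, 39.1 and 47.7 in WT treated mice. The groups overlapped through WT mouse 4, and the log2 difference was 0.75 (SE 0.33, edgeR adjusted p = 0.10). It passed the threshold when only WT and WT treated mice were fitted (adjusted p = 0.033) and without disease mouse 3 (0.048), whose 51.3 CPM were the highest of the 16 mice. In cohort F, *Klf10* was 29.3 to 48.5 CPM in disease mice and 23.0 to 30.2 with tamoxifen (log2 difference -0.54, SE 0.19, adjusted p = 0.12).

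Genes of TGF-beta signaling, a pathway for which *Klf10* is known as an early gene, also differed between groups. Of 11 genes, 4 were higher and 1 lower in disease mice of cohort G (median 0.40), 5 were higher and none lower in WT treated mice (median 0.81, beside -0.04 for all genes) and 2 rose in disease treated mice. Among all genes, 21.9%, 27.7% and 8.27% were called in these 3 comparisons, and 2.61% in disease mice of cohort F. The receptor *Tgfbr1* was higher in all 3 comparisons (0.62, 0.82 and 0.37), and in WT treated mice *Tgif1* (0.94), the ligand *Tgfb1* (1.58) and *Tgfbr2* (0.81) also rose. The part of bone, fibroblast and macrophage RNA in these differences was not tested. In cohort F, *Ccn2* was the only call of this list (1.67 in disease mice, adjusted p = 0.037). Of 15 immediate early genes, which respond within minutes to stress, 6 were higher and none lower in disease mice of cohort G, such as *Junb* (2.23), *Egr1* (2.65), *Ier2* (1.63) and *Fos* (2.12), and 2 in disease mice of cohort F, *Ier2* (0.92, adjusted p = 0.037) and *Egr1* (2.39, adjusted p = 0.044). Only *Ccn1* (1.57) rose in WT treated mice, and none passed under tamoxifen in disease mice of either cohort, while *Klf6* and *Klf10*, often counted with them, were not called in any comparison.

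*Klf9* and *Klf15*, the glucocorticoid-induced members, did not pass the test in any comparison either. In cohort G, *Klf9* was 263.8 to 351.8 CPM in WT, 263.1 to 380.1 in WT treated and 178.5 to 296.7 in disease mice, and disease treated mice spanned 175.6 to 359.4. In cohort F, it was 170.7 to 209.5 CPM in WT and 146.7 to 203.7 in disease mice, and disease treated mice spanned 165.9 to 231.6. *Klf15* was 25.4 to 63.4 CPM in cohort G and 44.5 to 88.8 in cohort F, and its groups overlapped. Without disease treated mouse 4, the highest of its group, *Klf9* of disease treated mice was lower than in WT mice of cohort G (-0.61, adjusted p = 0.020), against -0.34 (SE 0.22, adjusted p = 0.25) with all mice. Under tamoxifen in cohort F, the log2 difference was 0.33 (SE 0.14, adjusted p = 0.18) for *Klf9* and 0.32 (SE 0.17, adjusted p = 0.30) for *Klf15*.

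Both genes varied together from mouse to mouse. Among the 36 pairs of the 9 genes, *Klf9* and *Klf15* had the highest Pearson r of log2 CPM in either cohort, 0.76 over 16 mice of cohort G (Spearman's rho 0.71) and 0.81 over 12 mice of cohort F (rho 0.85). Without the 2 mice farthest from the median of *Klf9*, r was 0.64 and 0.75, and after subtracting the mean of each group 0.78 and 0.74. In cohort G, other pairs were then higher, *Klf6* and *Klf9* (r = 0.72) without 2 mice and *Klf2* and *Klf4* (r = 0.79) within groups, while in cohort F no pair was. Mice share library depth and dissection with the values, and these correlations are descriptions. In cohort F, *Klf4* ran opposite to *Klf15* (r = -0.82), and in cohort G *Klf6* ran with *Klf9* (r = 0.68, against 0.36 in cohort F).

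**Figure D4:**
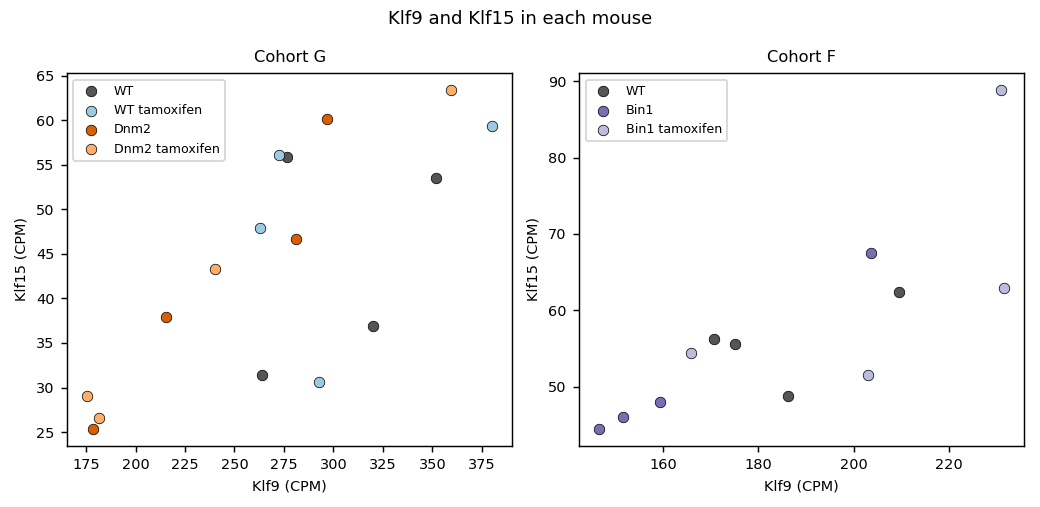
*Klf15* against *Klf9* in CPM for each mouse, with cohort G on the left and cohort F on the right and colors for groups; axes do not start at 0. Mice with more *Klf9* tended to have more *Klf15*, with r = 0.76 over 16 mice and 0.81 over 12 mice.

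The 250 bases before the start of *Klf9* and *Klf15* are shown because these genes varied together, and those of *Klf3* because it rose with tamoxifen. They are RefSeq sequences of build GRCm38.p6, all on the plus strand, at chr19:23140976-23141225 (*Klf9*), chr6:90462326-90462575 (*Klf15*) and chr5:64803271-64803520 (*Klf3*), and capitals mark the letters CACGTG (E-box, bound by clock factors), GGGCGG (GC box, bound by Sp and KLF proteins) and CCAAT, on either strand, the last found in 33.9% of all windows.
Klf9: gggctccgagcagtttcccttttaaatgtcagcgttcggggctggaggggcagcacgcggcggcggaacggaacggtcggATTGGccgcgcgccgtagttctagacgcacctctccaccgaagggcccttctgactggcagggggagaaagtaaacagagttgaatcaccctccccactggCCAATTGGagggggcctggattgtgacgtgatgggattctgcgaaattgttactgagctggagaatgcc
Klf15: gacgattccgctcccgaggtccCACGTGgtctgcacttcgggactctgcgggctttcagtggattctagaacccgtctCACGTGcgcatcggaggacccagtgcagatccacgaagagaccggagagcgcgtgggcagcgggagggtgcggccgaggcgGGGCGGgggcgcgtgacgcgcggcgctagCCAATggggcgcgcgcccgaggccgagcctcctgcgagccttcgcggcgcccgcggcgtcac
Klf3: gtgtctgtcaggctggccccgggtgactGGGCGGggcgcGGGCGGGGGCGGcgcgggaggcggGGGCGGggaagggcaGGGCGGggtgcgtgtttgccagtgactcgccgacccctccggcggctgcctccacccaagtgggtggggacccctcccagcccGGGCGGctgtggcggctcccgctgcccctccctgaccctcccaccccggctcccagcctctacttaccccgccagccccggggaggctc
*Klf15* held 2 E-boxes, which 6.02% of the 32851 promoter windows contain at least once, with 1 GC box and 1 CCAAT box. *Klf9* held 3 CCAAT boxes, of which 2 overlap on opposite strands, and neither other motif. *Klf3* held 6 GC boxes, found at least once in 32.7% of all windows, in a stretch of 78.4% G and C. The table matched 7 of the 9 genes, and *Klf5* and *Klf10* had no entry. The letters TATAAA of a TATA box were in none of the 7 windows and in 12.4% of all windows.

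Glucocorticoid-inducible genes other than *Klf9* and *Klf15* moved little in cohort G. Calls there covered 21.9% of all genes in disease mice and 27.7% in WT treated mice. Of 12 genes, the metallothionein *Mt2* was higher in disease mice (4.42, 31.0 to 248.0 CPM against 2.99 to 11.2) and *Nr3c1*, the glucocorticoid receptor, lower (-0.52, SE 0.16), and only *Mt2* rose in WT treated mice (2.24). In cohort F, *Mt2* was higher in disease mice (3.62, edgeR adjusted p = 0.049), where 2.61% of all genes were called. *Cebpd* (1.81, edgeR adjusted p = 0.028) and *Per1* (0.91, edgeR adjusted p = 0.037) rose there with tamoxifen. Of 16 clock genes, 6 rose and 1 fell under tamoxifen in cohort F (median 0.77, beside 0.00 for all genes), among them *Bhlhe41* (0.81), *Hlf* (2.00) and *Tef* (0.72) upward and *Npas2* (-1.86) downward. The share of all genes called there was 3.13%. The time of dissection entered no fit, and its part in the clock genes was not tested. In cohort G, *Nr1d2* (-0.74) and *Hlf* (-1.61) were lower in disease mice, and *Npas2* rose in WT treated mice (3.31). No clock gene was called in disease treated against disease mice, where 8.27% of all genes were called.

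Of the 12 amino acid and glucose genes known to act under KLF15, 10 were tested, and 6 were lower and none higher in WT treated mice (median -0.37, beside -0.04 for all genes), led by *Bckdha* (-0.66), *Slc2a4* (-0.45), *Gpt* (-0.40) and *Kyat3* (-0.45). Calls over all genes made up 21.9% in disease mice of cohort G and 27.7% in WT treated mice. Skeletal muscle markers had 0 of 7 called there (median -0.43) and summed to 90780 to 102000 CPM in WT treated mice, below the 115200 to 142500 CPM of the WT mice, and their part in the result was not tested. *Klf15* itself differed by 0.13 (SE 0.31, adjusted p = 0.79) there. In disease mice of cohort G, the glucose transporter *Slc2a4* (-0.51) and the alanine aminotransferase *Gpt2* (-1.34) were lower and none was higher. No gene of the list was called in disease treated against disease mice, where 8.27% of all genes were called. In cohort F, none was called in disease mice, where 2.61% of all genes were called. *Gpt2* rose there with tamoxifen (1.17, edgeR adjusted p = 0.048), where the share was 3.13%.

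Of 10 genes of lipid use and atrophy known under KLF5 or KLF15, 3 were lower and none higher in disease mice of cohort G, namely *Cpt1b* (-0.64), *Pparg* (-0.77) and *Acsl1* (-0.52), and in WT treated mice *Fabp3* (-1.12), *Acsl1* (-0.70) and *Cpt1b* (-0.48) fell and *Ucp2* rose (1.03). Calls over all genes made up 21.9% in disease mice and 27.7% in WT treated mice. None was called in disease treated against disease mice, where 8.27% of all genes were called. In cohort F, none was called in disease mice, where 2.61% of all genes were called. The ubiquitin ligase *Fbxo32* rose there with tamoxifen (0.86, edgeR adjusted p = 0.041), where 3.13% of all genes were called. *Trim63* was higher in disease treated than in WT mice (1.33, edgeR adjusted p = 0.0052), where 0.849% of all genes were called. The part of *Klf5* or *Klf15* in the level of these genes was not tested.

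Of the 8 other KLF genes, 5 were tested in cohort G and 4 in cohort F. *Klf16* was the only call, higher in disease treated than in WT mice of cohort G (0.80, SE 0.24, adjusted p = 0.019), with 2.56 to 5.70 against 1.98 to 2.68 CPM. In that comparison, 28.9% of all genes were called. Of the 9 related Sp genes, 6 were tested in cohort G and 2 rose with tamoxifen in both genotypes. Tamoxifen gave calls for 27.7% of all genes in WT mice and 8.27% in disease mice. *Sp7*, which codes for the osteoblast factor osterix and is itself one of the bone markers, was at 14.6 to 30.0 CPM in WT treated and 0.86 to 25.3 in disease treated mice, against at most 0.18 in the placebo mice (adjusted p = 0.00018 and 0.00086). *Sp6* was at 0.71 to 1.80 CPM in WT treated mice against at most 0.20 in WT mice (adjusted p = 0.0020). In cohort F, *Sp7* stood at 13.0 CPM in disease treated mouse 2, the mouse with bone RNA, and at most 0.26 in every other mouse.

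The genes most like a member were taken by Pearson r of log2 CPM over the 16 mice of cohort G, with r over the 12 mice of cohort F beside it. For *Klf5* these were *Zdhhc18* (r = 0.96, cohort F 0.58), *Tmem43* (0.96, 0.88), *Pvr* (0.96, 0.69), *Sprr1a* (0.95, 0.81) and *Rin1* (0.95, 0.86). Such r includes the difference between groups, and after subtracting group means it was 0.23 for *Sprr1a* and 0.59 to 0.81 for the other 4. *Tmem43* codes for a protein of the inner nuclear membrane, *Zdhhc18* for a palmitoyltransferase, *Pvr* for an adhesion receptor and *Rin1* for an effector of Ras.

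For *Klf3* the nearest were *Prkd3* (0.94, cohort F 0.67), *Fnbp1l* (0.94, 0.16) and *Kremen1* (0.93, 0.59). *Klf15* had *Mn1* (0.92, 0.80), the kinase *Pim3* (0.86, 0.85) and *Mast2* (0.85, 0.51), and *Klf9* had *Gpatch2l* (0.89, 0.26), *Asb15* (0.88, 0.56) and the lipid droplet gene *Plin4* (0.87, 0.82). *Klf7* had *Zfp512b* (0.92, 0.36), the receptor *Notch1* (0.90, 0.85) and *Pcdhgb4* (0.88, 0.18), and *Klf2* had the GTPase *Rhob* (0.87, 0.40), *Thrsp* and *Gm44219*. For *Klf6* they were *Hp1bp3* (0.86, 0.21), *Tiparp* (0.85, 0.51) and *Malt1* (0.85, 0.53), for *Klf4* *Gfpt2* (0.78, 0.77), *Tent5b* and *Arl4d*, and for *Klf10* *1700086O06Rik* (0.85, -0.02), *Dnmt3b* and *Rarres1*. The lowest r in cohort F among these were those of *Rarres1* (-0.62) and *Dnmt3b* (-0.36) with *Klf10* and of *Gm44219* (-0.36) with *Klf2*.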

How the data were processed

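The 9 genes and the gene lists were chosen with earlier results of these data known. The authors deposited raw counts, whole numbers of reads for each Ensembl identifier, for TA muscle of 28 mice, without normalization. Libraries were stranded and of polyadenylated RNA. The submitters' processing notes name bcl2fastq 2.20.0.422, cutadapt 1.10, Bowtie 1.2.2, STAR 2.5.3, HTSeq 0.6.1p1 and build mm39. In cohort F, 4 lines that name no gene (median 23.9% of the counts) were left out. Names and exon lengths came from GENCODE M21, which held 52083 of 55359 identifiers in cohort F and of 55416 in cohort G, and none of its coordinates were used. Each cohort was fitted by itself with all its mice in edgeR 4.0.16 (R 4.3.3), with TMM normalization, the default filter on low counts (15439 and 14841 genes kept), the robust quasi-likelihood test, a prior count of 2 and Benjamini-Hochberg adjustment over all genes tested, with a threshold of 0.05. The fits were tested on simulated data. Replicates are separate mice, and no pair agreed within counting error. *Klf5* went through the fits of cohort G with all genes, but no test of it is given there, since the placebo mice chose it. CPM use TMM library sizes. Genes were named by a rule, which took the 9 genes, other KLF and Sp genes, up to 4 called genes of a list and comparison with the smallest p, and the genes most like a member in r (5 for *Klf5* and 3 for each other gene). Alternatives were DESeq2 1.42.0, RLE normalization, library sizes without mitochondrial reads, no filter, more than 10 reads in 90% of the mice, fits of only the groups compared, a block for the replicate number, *Xist* as a covariate and leaving out each mouse.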

Additional observations from a re-analysis of the deposited data

Results flagged for a closer look

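Of the 63 sets of 4 mice formed by the 9 genes and 7 groups, 3 held a mouse whose gap to the nearest other mouse was large for the range of its group, where chance gives about 1 in 20. In disease mice of cohort F, mouse 2 had 67.5 CPM of *Klf15* against 44.5 to 48.0 in the other 3 mice, and mouse 3 had 31.5 CPM of *Klf2* against 13.4 to 15.6. Mouse 3 also had the lowest *Klf5* (2.47 CPM) and the highest sum of endothelial markers (575.6 CPM, against 416.8 to 440.4) of its group. In WT mice of cohort F, mouse 6 had 11.1 CPM of *Klf4* against 13.1 to 13.5 in the others.

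The response of *Klf5* to tamoxifen differed between genotypes of cohort G by -1.82 on the log2 scale, since it was 22.2 ± 5.80 and 7.91 ± 1.51 CPM (SD, n = 4) in disease and disease treated mice and 2.59 ± 1.14 and 3.36 ± 0.47 CPM in WT and WT treated mice. It was listed through the interaction term of the fit, which was run on all genes. That is no test of *Klf5*, because the placebo mice of both genotypes chose the gene, and the value is a description.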

How the results depend on the processing

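The 9 genes were compared in small groups, and the abundance of *Klf5* in WT mice, 24 reads in the shallowest, limits its fold. Leaving out a mouse moved *Klf5* of disease against WT mice of cohort G between 2.84 and 3.37 on the log2 scale. Of the tested log2 differences, 1390 repeats kept direction and call, 10 lost the call, 6 gained one and 68 changed sign, and 335 repeats of untested ones moved by less than the spread between mice. The cause of these changes was not tested, except that fits of only the groups compared hold fewer mice. Leaving out each mouse gave 1 to 2 calls among the genes tested in WT treated against WT mice (*Klf10* being the second, without disease mouse 3), 0 to 1 in disease treated against WT mice (*Klf9*, without disease treated mouse 4), 0 to 1 in disease mice of cohort F and 0 to 1 in disease treated against disease mice of cohort F. With only the groups compared, the calls numbered 2 in WT treated mice, 0 in disease treated mice (*Klf3* had adjusted p = 0.091) and 2 in disease mice of cohort F. Among all genes, these fits called 4298 of 14979, 30 of 14310 and 1458 of 14376. The count of members in disease mice of cohort F was 0 without a filter and 0 with *Xist*. DESeq2 called 1 member in disease treated mice of cohort F.

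The replicate numbers were not taken as pairs of mice. Deviations of same-numbered mice had r from -0.325 to 0.335 in cohort G and from -0.175 to 0.149 in cohort F. Such r cannot settle whether the mice were paired. With the replicate block, *Klf3* was 0.50 in WT mice (adjusted p = 0.028) and 0.67 in disease mice (adjusted p = 0.025), and each of the 6 tested comparisons that share numbers had the same count of called members as without it. Over all genes, calls in disease treated against disease mice went from 1277 to 843 in cohort G and from 464 to 152 in cohort F, and those of the interaction from 40 to 10.

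Small differences turned sign. In WT treated against WT mice, with over 10 reads in 90% of the mice and with only the groups compared, *Klf6* was 0.012 and 0.0043 and *Klf9* 0.031 and 0.020. In disease treated against disease mice, *Klf2* was 0.040 with *Xist* and *Klf9* 0.016 with only the groups compared. In disease treated against WT treated mice, *Klf6* was 0.0021 without a filter and 0.012 with only the groups compared. In the interaction, *Klf9* was 0.0016 by DESeq2 and 0.0012 by RLE. In disease treated against WT mice of cohort F with *Xist*, *Klf9* was -0.030 and *Klf15* -0.071. Without each mouse in turn, WT treated against WT gave -0.19 to 0.085 for *Klf6*, -0.13 to 0.081 for *Klf9* and -0.011 to 0.29 for *Klf15*. Disease treated against disease gave -0.34 to 0.081 for *Klf2*, -0.15 to 0.25 for *Klf6*, -0.29 to 0.10 for *Klf9*, -0.14 to 0.51 for *Klf10* and -0.37 to 0.15 for *Klf15*. Disease treated against WT treated gave -0.12 to 0.28 for *Klf4* and -0.27 to 0.12 for *Klf6*, and against WT -0.10 to 0.22 for *Klf2*, -0.30 to 0.10 for *Klf6* and -0.43 to 0.027 for *Klf15*. The interaction gave -0.057 to 0.37 for *Klf2*, -0.12 to 0.31 for *Klf6*, -0.28 to 0.10 for *Klf9* and -0.49 to 0.024 for *Klf15*. In cohort F, disease against WT gave -0.17 to 0.038 for *Klf6*, and disease treated against WT -0.10 to 0.29 for *Klf2*, -0.22 to 0.16 for *Klf3* and -0.23 to 0.046 for *Klf10*.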
